A study of Mus musculus with 16 samples.

Results

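The genes described here encode cytochrome P450 enzymes (Cyp genes), alcohol dehydrogenases (Adh genes) and aldehyde dehydrogenases (Aldh genes). They were chosen by gene symbol, and the families were put forward with earlier results for these libraries known, among them the interaction value of Cyp2b10, which is therefore given below as a description. Of 32989 gene identifiers in the count table, 79 were members, namely 54 Cyp, 4 Adh and 21 Aldh genes. A mean count of at least 5 over the 16 libraries was reached by 45 of them (25 Cyp, 3 Adh and 17 Aldh genes), and these were tested. The other 34 had too few reads, and 23 of them averaged under 1 count per library. Cyp2j13, Cyp11b1 and Cyp27b1 stood highest among those not tested, with mean counts of 4.31, 3.69 and 2.88, and Cyp2j13 had the same total as an overlapping pseudogene.

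The cells came from hair follicle stem cell organoids (3D–3C culture) of C57BL/6J mice, a strain with no engineered allele named in the labels. The organoids were cultured for 2 weeks. They were left untreated or received N1-acetylspermidine (N1-AcSpd), an acetylated form of the polyamine spermidine, for the last 72 h of this culture. Cells were then sorted by surface protein into α6+/CD34- progenitors and α6+/CD34+ hair follicle stem cells (HFSCs). Each of the 4 groups held 4 libraries, 1 from each of the same 4 mice. The study's methods describe mice of both sexes in the resting phase of the hair cycle (telogen), and the sex and age of each of the 4 mice are not given in the labels. All 4 groups had shared the culture medium, which contained serum, hydrocortisone and growth factors among other additions, so none shows the freshly isolated state.

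P450 enzymes insert oxygen into lipids, steroids, vitamins and foreign compounds with electrons from a reductase. Alcohol dehydrogenases turn alcohols such as retinol into aldehydes, and aldehyde dehydrogenases turn aldehydes into acids. In skin, the same families make and clear retinoic acid, process the fatty acids and ceramides of the barrier, and metabolise sterols and vitamin D.

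The measurement was 3′ RNA-seq, in which the 3′ end of each transcript was read and counted once per unique molecular identifier. Library totals ranged from 15480075 to 29074855 counts, and 22142 to 24247 genes had a count. Levels below are CPM, that is, counts scaled to the library total after TMM normalisation. They were not divided by transcript length, as a transcript gives 1 tag whatever its length, and levels are not compared between genes. Cd34 stood at 2.87 to 3.65 CPM in the α6+/CD34- libraries and at 43.4 to 64.0 CPM in the α6+/CD34+ libraries. Of 7 HFSC markers, 5 were higher in α6+/CD34+ cells in both conditions and Itga6, which encodes integrin α6, was lower. The remaining marker, Lgr5, was not called in either condition. It had 3 and 0 counts in N1-AcSpd α6+/CD34- libraries 2 and 3, against 132 and 117 in libraries 1 and 4. All 8 epidermal differentiation markers were lower in α6+/CD34+ cells in both conditions, and their summed level was 1027 to 1373 CPM in untreated α6+/CD34- cells and 295.3 to 320.5 CPM in untreated α6+/CD34+ cells. With N1-AcSpd these sums were 1238 to 1563 and 309.6 to 399.8 CPM. The part of this shift in the values below was not tested, and in bulk samples fewer cells of a type and less RNA per cell cannot be told apart. Sums over the marker lists stayed at or under 6.97 CPM for sebocytes, 1.52 CPM for fibroblasts and 2.08 CPM for immune cells, and ran from 9.38 to 12.6 CPM for melanocytes. The tested sebocyte markers Cidea and Scd3, and Col1a2 of the fibroblast list, were lower in α6+/CD34+ cells in both conditions.

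The 3 members with the most counts, Cyp4x1, Aldh1a3 and Cyp2e1, carry a sequence that many other genes also carry, and their counts may not come from these genes alone. Together they made up 55.8% to 80.5% of all member counts in a library. Their annotated transcripts share a run of up to 47 bases, of which 30 are shown here because this stretch is what links the 3 genes. It is printed in capitals since every base is common to all 3.

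Stretch shared by Cyp4x1, Aldh1a3 and Cyp2e1: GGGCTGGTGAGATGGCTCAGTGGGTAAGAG

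In GRCm38 it lies in the 3′ UTR of each gene, at chr4:115106921-115106950 on the minus strand for Cyp4x1, chr7:66408670-66408699 on the minus strand for Aldh1a3 and chr7:140774798-140774827 on the plus strand for Cyp2e1. The stretch resembles the start of the mouse B2 short interspersed repeat, although no repeat annotation was used here. On either strand it occurred in transcripts of 249 genes of the GENCODE M21 set, 226 of them among the 19049 genes tested. Words of 31 bases from Cyp4x1, Aldh1a3 and Cyp2e1 transcripts recurred in 1212, 1132 and 1164 other genes. Such sharing is not particular to these 3. Words of Adh5, Aldh16a1, Adh6b and Cyp19a1 recurred in 3379, 1233, 2788 and 2868 other genes, and the same limit holds for their counts. Within the last 500 bases of the transcripts, 18 of 940 words of Cyp4x1, 104 of 2178 of Aldh1a3 and 127 of 1181 of Cyp2e1 were shared. For Adh5 and Aldh16a1 it was 59 of 2728 and 75 of 3689 words. The printed stretch lay 598 bases from the transcript end in Cyp4x1, outside that window, 159 bases in Aldh1a3, and 154 or 160 bases in Cyp2e1. How many reads came from it was not measured.

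The ratio of each member to the gene that followed it most closely was also computed. Across the 16 libraries the ratio of Cyp4x1 to Lhfpl4, a gene on chromosome 6, stayed between 0.677 and 0.704. Its log2 values had an SD of 0.0163, against 0.0252 for independent counting of separate tags. The ratio of Aldh1a3 to Casc4 on chromosome 2 had an SD of 0.0135 against 0.0284, and that of Cyp2e1 to Gm29761 on chromosome 9 an SD of 0.00939 against 0.037. Each of these genes was picked after the fact as the most constant of 12444, and they shared 67, 78 and 85 of the 31-base words with their member. An SD under the counting value was found for 21 of 28 members so examined, most of whose closest genes shared no word with them. Being under that value therefore does not by itself set these 3 apart. Aldh9a1, for example, had an SD of 0.0538 against 0.131 with Rwdd1 and shared no word with it. The SDs of these 3 were nevertheless the smallest of the 28, with Aldh9a1 next. Among the other members the closest gene shared at most 7 words, in the case of Aldh16a1. The part of shared reads in these ratios was not tested. Of the 3 genes Aldh1a3, which makes retinoic acid from retinal, is the member where this matters most for retinoids, and its values below describe the tags assigned to it.

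**Figure D1:**
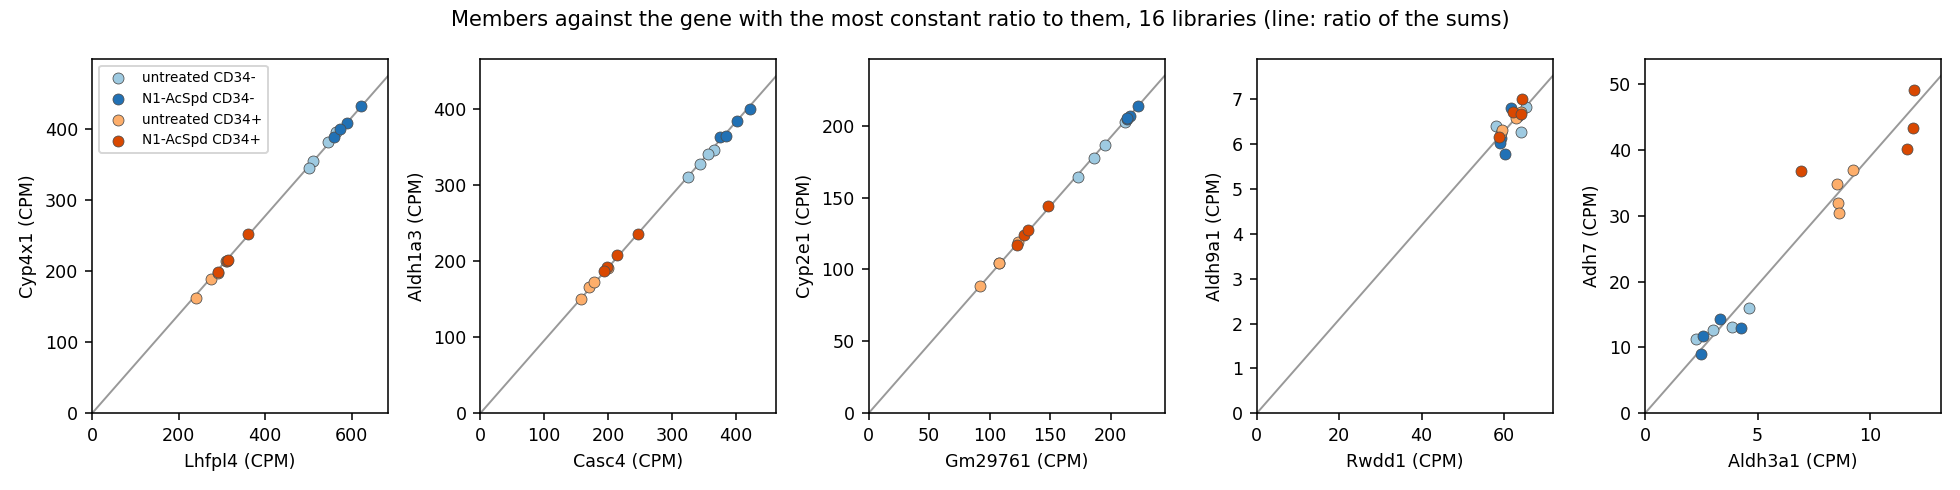
Each panel plots a member (vertical axis, CPM) against the gene whose ratio to it was most constant (horizontal axis, CPM), with 1 point per library, colour by group and a line at the ratio of the sums. Cyp4x1, Aldh1a3 and Cyp2e1 follow Lhfpl4, Casc4 and Gm29761 with SDs of the log2 ratio of 0.0163, 0.0135 and 0.00939. Aldh9a1 and Rwdd1, which share no word, have an SD of 0.0538, and Adh7 and Aldh3a1 one of 0.214.

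Some members overlap other gene models. Adh7 and the antisense model 0610031O16Rik both had 8094 counts, with the same count in every library, so their reads cannot be told apart. Aldh1l1 (1386 counts) and Gm15756 (1303), Aldh5a1 (993) and 4932702P03Rik (975), and Cyp4v3 (293) and Gm45753 (283) differed by 6.17%, 2.03% and 3.47% in total over the libraries. Other members overlap coding genes with more counts. Among them, Aldh4a1 (1683 counts) shares 308 of its 943 words near the transcript ends with Gm21969 (8485), on the same strand. Aldh6a1 (697 counts) shares 180 of 1612 such words with Bbof1 (2663), on the opposite strand. How many of their counts came from the overlapping gene was not tested.

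The first question was how the families differ between HFSCs and progenitors. In untreated organoids 24 of the 45 tested members were called at an adjusted p under 0.05 by edgeR's quasi-likelihood test, 15 of them higher and 9 lower in α6+/CD34+ cells. Of all genes tested, 32.1% were called, 16.1% higher and 16.1% lower, against 53.3%, 33.3% and 20% of the members. With N1-AcSpd the count was 26, with 17 higher and 9 lower, and 33.3% of all genes were called, 16.5% higher and 16.8% lower. The median log2 fold change of the tested members was 0.30 untreated and 0.27 with N1-AcSpd, against 0.02 and -0.01 over all genes. Without Cyp4x1, Aldh1a3 and Cyp2e1, 21 of 42 members were called untreated (15 higher, 6 lower) and 23 of 42 with N1-AcSpd (17 higher, 6 lower). Without also the 4 members that nearly share their counts with an overlapping model, the calls were 17 and 19 of 38. Both of these counts were added after the data were seen. In both conditions 14 members were higher and 9 were lower, and no member was called in opposite directions.

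**Figure D2:**
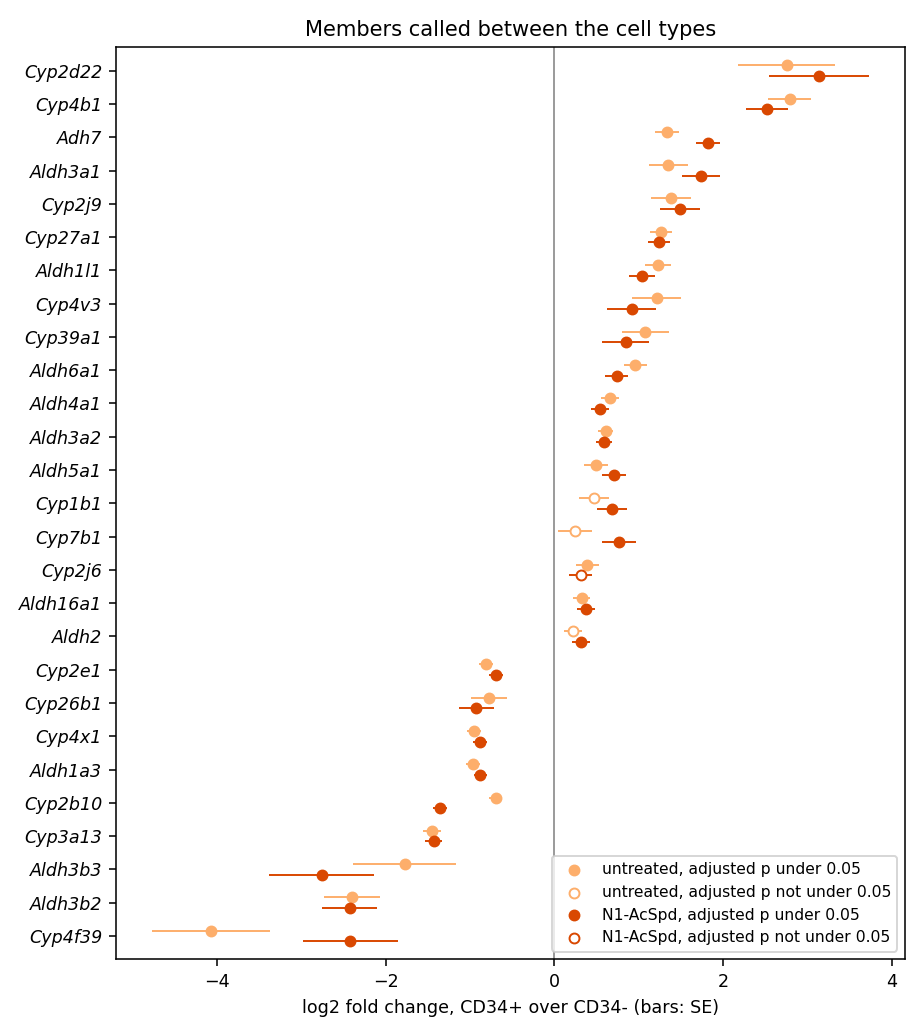
The 27 members called in either condition, with the log2 fold change of α6+/CD34+ over α6+/CD34- cells on the horizontal axis, bars of 1 SE, light points for untreated and dark points for N1-AcSpd libraries, and filled points for an adjusted p under 0.05. Members fall on 1 side of 0 in both conditions, from Cyp2d22 at 2.75 and 3.14 to Cyp4f39 at -4.07 and -2.42, and Cyp4f39 rested on 1 count in the untreated α6+/CD34+ libraries.

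Among the members higher in HFSCs, Cyp4b1, a P450 that oxidises fatty acids and activates some plant toxins, had the largest difference among members whose counts averaged 50 or more. Its level in untreated α6+/CD34- libraries was 2.45, 0.958, 1.39 and 1.62 CPM, and in untreated α6+/CD34+ libraries 10.5, 10.9, 9.16 and 14.3 CPM. With N1-AcSpd the values were 1.44, 1.88, 1.25 and 1.15 CPM in progenitors and 7.83, 7.17, 7.48 and 10.5 CPM in HFSCs. Every α6+/CD34+ library was above every α6+/CD34- library. The log2 fold change was 2.79 (SE 0.25, adjusted p = 2.24e-06, edgeR) untreated and 2.52 (SE 0.25, adjusted p = 4.39e-06, edgeR) with N1-AcSpd. Cyp4b1 (chr4:115624725-115647723, minus strand) and Cyp4x1 (chr4:115106323-115134281, minus strand) lie in the same Cyp4 cluster, and Cyp4x1 was assigned fewer counts in HFSCs. Among P450s with fewer counts, Cyp2j9 was higher in HFSCs by 1.38 and 1.49 on the log2 scale (SE 0.24), and Cyp2d22 by 2.75 and 3.14 (SE 0.58 and 0.60).

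Adh7 encodes the class IV alcohol dehydrogenase of epithelia, which oxidises retinol and ethanol. Its level in untreated progenitors was 13.2, 16.0, 11.3 and 12.7 CPM, and in untreated HFSCs 31.9, 36.9, 30.4 and 34.9 CPM. With N1-AcSpd it was 14.4, 13.0, 11.7 and 9.06 CPM in progenitors and 40.1, 49.2, 43.3 and 36.8 CPM in HFSCs. The groups did not overlap, and HFSCs were higher on the log2 scale by 1.33 (SE 0.14, adjusted p = 8.31e-06) untreated and 1.82 (SE 0.14, adjusted p = 7.46e-07) with N1-AcSpd. The other tested alcohol dehydrogenases, Adh5 and Adh6b, did not pass. Adh5, the formaldehyde-clearing enzyme of every cell, stood at 59.2 ± 3.65 CPM in untreated progenitors and 62.5 ± 4.26 CPM in untreated HFSCs (mean ± SD, n = 4), with a log2 fold change of 0.08 (SE 0.06). Adh6b ranged from 0 to 1.68 CPM over the 16 libraries, and Adh1, with 27 counts in all, was not tested.

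The Aldh3 genes act on fatty and aromatic aldehydes, and the 4 tested members split into 2 that were higher and 2 that were lower in HFSCs, in both conditions. Aldh3a1, the abundant aldehyde dehydrogenase of the cornea, had 3.87, 4.60, 2.25 and 3.02 CPM in untreated progenitors and 8.59, 9.21, 8.62 and 8.53 CPM in untreated HFSCs. The log2 fold change was 1.35 (SE 0.23, adjusted p = 0.000499) untreated and 1.74 (SE 0.23, adjusted p = 5.48e-05) with N1-AcSpd, where the HFSC values were 11.6, 11.9, 11.9 and 6.93 CPM and the progenitor values lay between 2.50 and 4.26 CPM. Over 12444 genes compared, Aldh3a1 was the gene with the most constant ratio to Adh7 and Adh7 the gene with the most constant ratio to Aldh3a1, at 3.04 to 5.29 Adh7 counts per Aldh3a1 count in the 16 libraries, a pair singled out after its values were seen. The adjacent Aldh3a2 (chr11:61223417-61267464), which clears long-chain fatty aldehydes, measured 4.55 ± 0.190 CPM in progenitors and 6.93 ± 0.694 CPM in HFSCs untreated (mean ± SD, n = 4). It was higher by 0.61 on the log2 scale (SE 0.09, adjusted p = 0.000214). With N1-AcSpd its log2 fold change was 0.59 (SE 0.09, adjusted p = 0.000237).

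Aldh3b2, whose product sits on lipid droplets and membranes, went the other way. Its level was 4.81, 4.79, 7.83 and 8.88 CPM in untreated progenitors and 1.36, 0.713, 1.79 and 1.13 CPM in untreated HFSCs. With N1-AcSpd it was 11.9, 6.07, 9.23 and 6.81 CPM in progenitors and 1.45, 1.59, 2.27 and 0.998 CPM in HFSCs. The HFSC libraries were below all progenitor libraries, and the log2 fold change was -2.39 (SE 0.33, adjusted p = 9.86e-05) untreated and -2.43 (SE 0.33, adjusted p = 6.38e-05) with N1-AcSpd. The neighbouring Aldh3b3 (chr19:3958645-3972103) was also lower, at -1.78 and -2.76 (SE 0.61 and 0.62). The pair shares 632 of the 31-base words, but 11 of 470 such words in the last 500 bases of Aldh3b2, nearest the 3′ end, recur in another gene.

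The remaining aldehyde dehydrogenases, many of them enzymes of folate and amino acid breakdown, included 11 tested genes. Of these, 5 were called higher in HFSCs untreated and 6 with N1-AcSpd, and none was called lower, where 16.1% and 16.5% of all genes were called higher and 16.1% and 16.8% lower. Aldh1l1, which oxidises formyltetrahydrofolate, measured 2.79 ± 0.316 CPM in progenitors and 6.50 ± 0.243 CPM in HFSCs untreated (mean ± SD, n = 4). Its log2 fold change was 1.22 (SE 0.15, adjusted p = 4.28e-05) untreated and 1.04 (SE 0.15, adjusted p = 0.000136) with N1-AcSpd. Aldh4a1 of proline breakdown, Aldh5a1 of the GABA pathway and Aldh6a1 of valine breakdown had log2 fold changes of 0.66, 0.49 and 0.96 untreated and of 0.54, 0.70 and 0.74 with N1-AcSpd (SE 0.11 to 0.14). Counts of Aldh4a1 and Aldh6a1 may include reads of the overlapping coding genes named above, so their values describe the tags assigned to them. Aldh16a1, a member whose mammalian product is thought to lack activity, differed by 0.32 and 0.37 (SE 0.10). Aldh2, the mitochondrial acetaldehyde enzyme, was called with N1-AcSpd, at 7.98 ± 0.531 CPM in progenitors and 9.95 ± 0.620 CPM in HFSCs (mean ± SD, n = 4). Untreated, its log2 fold change of 0.22 had an adjusted p of 0.147, which was 0.0482 with mouse as a block (0.0309 to 0.263 over the 7 other settings). Aldh18a1 of proline synthesis and Aldh7a1 of lysine breakdown, among the members with most counts, had log2 fold changes of 0.06 and 0.01 untreated (SE 0.10 and 0.07) and of 0.19 and 0.03 with N1-AcSpd, and did not pass.

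**Figure D3:**
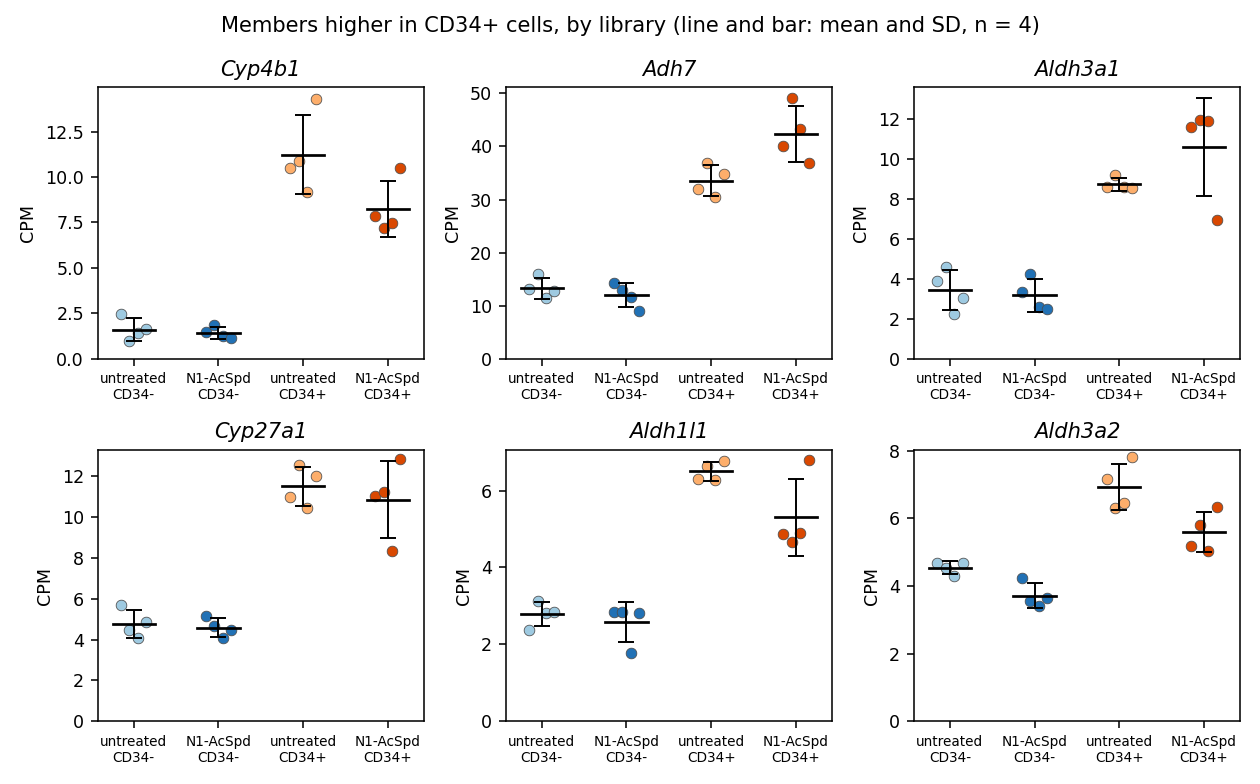
CPM of 6 members higher in α6+/CD34+ cells, with 1 point per library, the 4 groups along the horizontal axis and a line and bar for the mean and SD (n = 4). The α6+/CD34+ points of Cyp4b1, Adh7, Aldh3a1, Cyp27a1, Aldh1l1 and Aldh3a2 lie above the α6+/CD34- points of the same condition.

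Sterol and vitamin D enzymes were also higher where called. Cyp27a1, a mitochondrial hydroxylase of sterols and vitamin D, had 5.67, 4.47, 4.07 and 4.87 CPM in untreated progenitors and 10.98, 12.55, 10.46 and 12.02 CPM in untreated HFSCs. With N1-AcSpd the values were 5.16, 4.65, 4.07 and 4.47 CPM against 11.02, 11.21, 8.34 and 12.85 CPM. The log2 fold change was 1.27 (SE 0.13, adjusted p = 6.46e-06) untreated and 1.24 (SE 0.13, adjusted p = 6.59e-06) with N1-AcSpd, again without overlap. Cyp39a1, an oxysterol hydroxylase, was higher by 1.08 and 0.84 on the log2 scale (SE 0.28 and 0.27). Cyp7b1, another oxysterol hydroxylase, was called with N1-AcSpd, at 5.79 ± 1.48 CPM in progenitors and 9.84 ± 1.403 CPM in HFSCs (log2 fold change 0.77, SE 0.20, adjusted p = 0.0099), and untreated its log2 fold change was 0.24 (SE 0.20). Vdr, the vitamin D receptor, was higher in HFSCs by 1.21 and 1.03 on the log2 scale (SE 0.13). Cyp2r1, a vitamin D hydroxylase, had log2 fold changes of 1.06 and 1.01 with adjusted p = 0.0633 and 0.0711 (edgeR).

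Further calls were less stable. Cyp1b1, which oxidises estrogens and retinol and is a known target of the aryl hydrocarbon receptor, was called with N1-AcSpd (log2 fold change 0.68, SE 0.17, adjusted p = 0.00722) and had 0.47 (SE 0.18, adjusted p = 0.0548) untreated. Cyp2j6 was called untreated (0.39, SE 0.14, adjusted p = 0.0447), and this call was lost in 14 of 20 fits that left out a library or a mouse. The Cyp1b1 call was lost without mouse 1 or 3 (0.55 to 0.65, adjusted p up to 0.0881), the Cyp7b1 call without mouse 2 (0.66, adjusted p = 0.0649) and the Cyp26b1 call untreated without mouse 2 or 4 (-0.78 to -0.66, adjusted p up to 0.105). The Aldh16a1 call was lost in 7 fits untreated, without mouse 2, 3 or 4, untreated HFSC library 1 or 3 or untreated progenitor library 2 or 4, and in 2 fits with N1-AcSpd, without mouse 2 or 3 (log2 fold change 0.27 to 0.37). The Aldh2 call with N1-AcSpd was lost in 8 of 20 fits and the Aldh5a1 call untreated in 5 of 20. Of the members with fewer counts, Cyp39a1 lost its call in 1 of 20 fits untreated and in 6 of 20 with N1-AcSpd, Cyp4v3 in 2 and 8 of 20, and Aldh3b3 in 10 of 20 untreated. The Cyp39a1 call with N1-AcSpd (adjusted p = 0.0288) was also lost when only the compared groups were fitted (adjusted p = 0.0587) and with no low-count filter (adjusted p = 0.0529), and the Aldh3b3 call untreated (adjusted p = 0.0395) with no low-count filter (adjusted p = 0.0664). Cyp4f13, which did not pass in edgeR without a block (0.30 and 0.27, adjusted p = 0.0891 and 0.115), passed with mouse as a block (adjusted p = 0.0236 and 0.0344). Over the 7 other settings its adjusted p ran from 0.0228 to 0.148 and from 0.0295 to 0.192.

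Lower in HFSCs was Cyp3a13, the mouse CYP3A enzyme of extrahepatic tissues. Its level was 7.09, 8.17, 8.57 and 8.93 CPM in untreated progenitors and 2.84, 3.02, 3.52 and 2.57 CPM in untreated HFSCs. With N1-AcSpd it was 9.61, 10.3, 9.69 and 10.2 CPM in progenitors and 3.64, 4.10, 3.93 and 3.05 CPM in HFSCs. Every HFSC library was below every progenitor library. The log2 fold change was -1.45 (SE 0.11, adjusted p = 7.14e-07) untreated and -1.43 (SE 0.11, adjusted p = 5.28e-07) with N1-AcSpd. The most constant ratio to it over 12444 genes was that of Krt16, a keratin of stressed epidermis, with an SD of the log2 ratio of 0.122. For Aldh3b2 it was that of Sprr2e, a cornified envelope precursor, with an SD of 0.252. Krt16 and Sprr2e were picked from the closest genes of 28 members after their values were seen. Those of Cyp2b10 and Cyp4b1, for example, were Ifnar1 (SD 0.159) and Sval2 (SD 0.323).

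Cyp2b10, described in full with the treatment, differed in HFSCs by -0.70 on the log2 scale (SE 0.08, adjusted p = 1.68e-05, edgeR) untreated and by -1.36 (SE 0.08, adjusted p = 1.09e-07, edgeR) with N1-AcSpd. The gap between these values is the interaction known beforehand, so they are given as a description.

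Retinoic acid is cleared by Cyp26 enzymes, and Cyp26b1 was the tested one. It was measured at 1.81, 2.11, 2.03 and 2.07 CPM in untreated progenitors and at 1.59, 0.932, 0.921 and 1.23 CPM in untreated HFSCs. The log2 fold change was -0.77 (SE 0.21, adjusted p = 0.0112) untreated and -0.92 (SE 0.20, adjusted p = 0.0029) with N1-AcSpd, where 1 progenitor library at 4.03 CPM stood above the others at 2.14 to 2.59 CPM. Of the retinal dehydrogenases, Aldh1a2 had 0.424 ± 0.287 CPM in progenitors and 0.860 ± 0.312 CPM in HFSCs untreated and did not pass (log2 fold change 0.99, SE 0.54), and Aldh1a1 had 16 counts in all. Counts assigned to Aldh1a3 were 328, 311, 346 and 342 CPM in untreated progenitors and 166, 173, 191 and 150 CPM in untreated HFSCs (log2 fold change -0.97, SE 0.08). Those assigned to Cyp4x1 and Cyp2e1 fell by 0.95 and 0.81 on the log2 scale (SE 0.09 each) untreated, and with N1-AcSpd the 3 values were -0.88, -0.89 and -0.69.

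**Figure D4:**
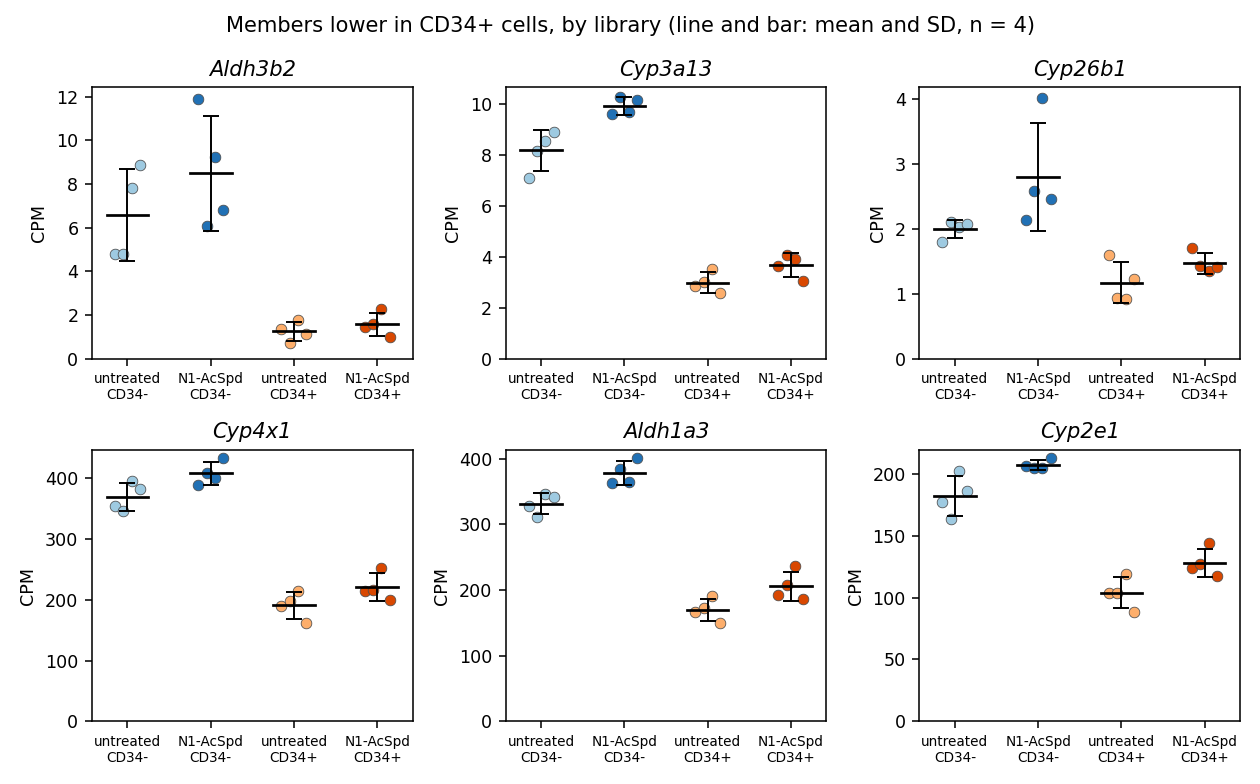
CPM of 6 members lower in α6+/CD34+ cells, drawn as 1 point per library with the mean and SD (n = 4) of each of the 4 groups. Aldh3b2, Cyp3a13 and Cyp26b1 are in the upper row, and the lower row holds Cyp4x1, Aldh1a3 and Cyp2e1, whose 3 panels share 1 pattern and whose transcripts share sequence with many other genes.

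Other retinoid genes were read beside the members from a fixed list. Of 11 tested, 4 were lower and 2 higher in HFSCs in both conditions. The binding proteins Crabp2, Fabp5 and Crabp1 differed by -2.74, -2.20 and -2.12 on the log2 scale untreated (SE 0.19, 0.17 and 0.52) and the retinol dehydrogenase Rdh11 by -0.47 (SE 0.11). Dhrs3, which returns retinal to retinol, and the receptor Rarg were higher by 1.17 and 0.29 (SE 0.19 and 0.10). Of 7 electron donors of P450s, 3 were higher and 2 lower untreated, and 2 were higher and 2 lower with N1-AcSpd. Por, the reductase that serves microsomal P450s, differed by -0.18 and -0.17 (SE 0.05), and Cyb5r3, a reductase of cytochrome b5, by 0.68 and 0.75 (SE 0.06). Among 11 tested receptors and sensors, 2 were higher and 2 lower untreated and 5 higher and 2 lower with N1-AcSpd. Over all genes 32.1% were called untreated (16.1% higher, 16.1% lower) and 33.3% with N1-AcSpd (16.5% higher, 16.8% lower). Counts from lists this short are not set apart from these shares. Tiparp, a target of the aryl hydrocarbon receptor, differed by -0.48 and -0.69 (SE 0.07).

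Upstream bases are shown for 4 members, chosen after their values were seen as the pair in each direction with the largest differences. Only members averaging 50 or more counts and held in the RefSeq promoter table (GRCm38.p6, 58 of the 79 members) were considered. Capitals mark matches on either strand to 4 motifs, of which the last pair can overlap. They are the box bound by TBP near many start sites, searched as TATAAA, the core bound by the aryl hydrocarbon receptor, searched as GCGTG, the core of the antioxidant response element, searched as TGACNNNGC, and the AP-1 type of site, searched as TGANTCA. N stands for any base, so TGANTCA is looser than the AP-1 site itself, and the Cyp4b1 match reads TGAATCA. Bases inside an annotated exon are left out.

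Adh7, chr3:138217523-138217759, plus strand: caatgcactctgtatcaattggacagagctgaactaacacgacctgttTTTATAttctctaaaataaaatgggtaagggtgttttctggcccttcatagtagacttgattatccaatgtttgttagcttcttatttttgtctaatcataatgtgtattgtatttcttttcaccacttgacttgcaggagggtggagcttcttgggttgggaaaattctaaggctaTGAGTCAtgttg

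Cyp4b1, chr4:115647724-115647971, minus strand: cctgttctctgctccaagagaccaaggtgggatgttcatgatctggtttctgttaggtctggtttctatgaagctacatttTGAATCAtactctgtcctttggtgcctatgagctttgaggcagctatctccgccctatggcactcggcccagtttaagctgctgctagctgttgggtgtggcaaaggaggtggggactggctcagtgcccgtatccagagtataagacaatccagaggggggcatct

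Cyp3a13, chr5:137921620-137921869, minus strand: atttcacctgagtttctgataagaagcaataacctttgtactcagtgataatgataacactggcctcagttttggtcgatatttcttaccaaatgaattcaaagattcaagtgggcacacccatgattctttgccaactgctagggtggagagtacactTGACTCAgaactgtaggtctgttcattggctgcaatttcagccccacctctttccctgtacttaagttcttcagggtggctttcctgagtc

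Cyp2b10, chr7:25897408-25897619, plus strand: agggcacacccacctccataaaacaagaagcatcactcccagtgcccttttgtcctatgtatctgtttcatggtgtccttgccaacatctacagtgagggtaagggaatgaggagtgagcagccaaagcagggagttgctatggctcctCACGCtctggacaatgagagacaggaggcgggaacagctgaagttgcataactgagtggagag

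The letters TGANTCA occurred in the stretches of Adh7, Cyp4b1 and Cyp3a13, and in 6.75% of all 32851 promoter entries (250 bases before the start). They were found in 2 of 12 entries of members higher in both conditions and in 1 of 6 of members lower in both. GCGTG occurred in 28.2% of all entries, in 4 of the 12 and in 3 of the 6, Cyp2b10 among them. TATAAA was in 12.4% of all entries, in 1 of the 12 and in 2 of the 6. The match in Adh7 lay on the opposite strand, 202 bases before the start, and is not placed as a box near that start. TGACNNNGC was in 10.2% of all entries and in none of the 12 or the 6.

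The second question was what N1-AcSpd changed. In α6+/CD34- progenitors 1 of 45 members passed, Cyp2b10, while 0.614% of all genes were called. An unadjusted p under 0.05 was found for 7 members and for 13.6% of all genes. The Cyp2b10 value is a part of its interaction, which was known when the family was put forward. Its call is therefore given as a description. Cyp2b10 is the classical target of the constitutive androstane receptor in liver. Its level was 14.4, 14.9, 14.5 and 18.2 CPM untreated and 23.5, 20.4, 22.2 and 20.7 CPM with N1-AcSpd. The treated libraries were all above the untreated ones, and the value was higher with N1-AcSpd in 4 of 4 mice. The log2 fold change was 0.48 (SE 0.08, adjusted p = 0.0188, edgeR), with adjusted p from 1.33e-05 to 0.0973 over 7 other settings. The call was lost without mouse 1, 2 or 3, without untreated library 1 or 3 and without N1-AcSpd library 3 or 4 (log2 fold change 0.41 to 0.50, adjusted p 0.053 to 0.181), and when only the 2 progenitor groups were fitted. Between the same 2 groups the summed HFSC markers were 142.3 to 157.5 CPM untreated and 120.3 to 129.3 CPM with N1-AcSpd, and Nfatc1 on that list was lower with N1-AcSpd, while no differentiation marker passed. The part of this shift in the Cyp2b10 value was not tested. Of the 31-base words of Cyp2b10, 276 recur in Cyp2b13, which had 84 counts in all against 4906 for Cyp2b10.

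In α6+/CD34+ HFSCs no member passed in edgeR, where 0.325% of all genes were called and 9 members had an unadjusted p under 0.05, as did 13.2% of all genes. Cyp2b10 was at 10.01, 9.32, 8.83 and 10.1 CPM untreated and at 8.28, 7.91, 8.59 and 9.10 CPM with N1-AcSpd, so N1-AcSpd differed from untreated by -0.18 on the log2 scale (SE 0.08, adjusted p = 0.362). Ranked by p in each direction, the leading members were Cyp2e1 with 0.30 (SE 0.09, adjusted p = 0.167) and Aldh3a2 with -0.31 (SE 0.09, adjusted p = 0.179), each in the same direction in 4 of 4 mice. DESeq2 called 431 of the 19049 genes in this comparison. It gave an adjusted p to 9 of the 45 members and called 2, Aldh1a3 (0.29, adjusted p = 0.0126) and Cyp2e1 (0.32, adjusted p = 0.0133). The adjusted p of both ran up to 0.379 and 0.366 over 7 settings. Both are members whose transcripts share sequence with many other genes. Nqo1, a quinone reductase on the list of conjugation enzymes, was the pathway gene called in both treatment comparisons, with log2 fold changes of 0.73 in progenitors and 0.64 in HFSCs (SE 0.10, adjusted p = 0.00836 and 0.0186).

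**Figure D5:**
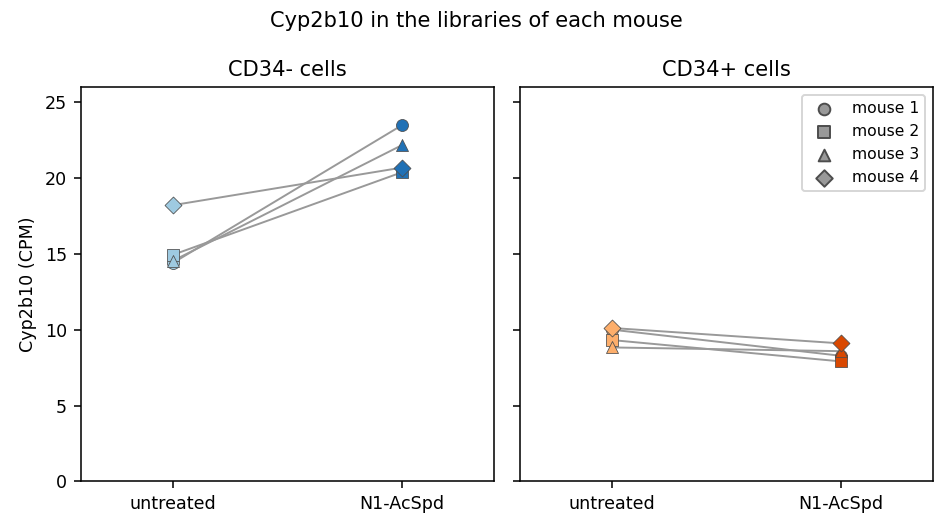
Cyp2b10 level (CPM, vertical axis) in untreated and N1-AcSpd libraries of each mouse, joined by a line, with α6+/CD34- cells on the left and α6+/CD34+ cells on the right. The lines rise in 4 of 4 mice in α6+/CD34- cells, from 14.4 to 18.2 CPM up to 20.4 to 23.5 CPM, and fall in 4 of 4 in α6+/CD34+ cells.

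The interaction of cell type and treatment asks whether N1-AcSpd acted differently in the 2 cell types. No member passed in edgeR, as was the case for all genes tested (0%). Of these genes 799 (4.19%) had an unadjusted p under 0.05, among them 3 members (Cyp2b10, Adh7 and Cyp19a1, the aromatase gene). Cyp19a1 had 21 and 28 counts in N1-AcSpd α6+/CD34- libraries 1 and 3, and 16 and 21 in untreated α6+/CD34+ libraries 2 and 4. It had no counts in the other libraries, so its value rests on isolated libraries and is not read as a response. DESeq2 called 71 genes and 1 member, Cyp2b10. The Cyp2b10 treatment effect in HFSCs differed from that in progenitors by -0.66 on the log2 scale (SE 0.11, adjusted p = 0.411, edgeR), with the same sign in 4 of 4 mice, a value known when the family was put forward and given as a description. Adh7 had the smallest p of the opposite direction, with an interaction of 0.48 (SE 0.20, adjusted p = 1) and the same sign in 4 of 4 mice. The comparisons of N1-AcSpd with untreated cells share their libraries with the cell type comparisons, so the values stand side by side and are not independent.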

How the data were processed

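Expression was measured by 3′ RNA-seq in 16 libraries, 4 mice in each of 4 groups. The deposited table holds raw counts, which the authors made by trimming reads, pseudo-aligning them to mm10 (kallisto 0.45.0), intersecting them with genes (BEDTools) and keeping unique molecular identifiers per gene. The annotation release and the treatment of reads that match several genes are not given in the sources used here. Reads in repeats or overlapping genes may therefore be assigned to several genes. Empty cells (156050) were read as 0. Symbols and positions came from GENCODE M21 (GRCm38), which lacked 62 of 32989 identifiers. Members and gene lists were chosen with earlier results of these data known.

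The 19049 genes that averaged 5 or more counts were fitted with edgeR 4.0.16 (R 4.3.3, TMM scaling, quasi-likelihood F test, 1 mean per group), with Benjamini-Hochberg adjustment over all of them, and called at an adjusted p under 0.05. SE is the absolute log2 fold change over the square root of F. Replicates were separate mice, and each gave 1 library to every group. Taken over all tested genes, libraries of 1 mouse deviated together little (mean correlation 0.013, -0.069 to 0.086, 24 pairs). This does not measure the pairing of single genes, and fits with mouse as a block are given below. No pair of libraries was a copy (chi-square per degree of freedom at least 25.4). Members were named where called and averaging 50 or more counts (the 12 largest differences in each direction), where they had the smallest p of a comparison without calls, among the 10 highest counts, and in the retinoic acid and alcohol dehydrogenase classes. Aldh6a1, Cyp39a1, Aldh3b3, Cyp2j9, Cyp2d22, Cyp4v3, Cyp4f39, Cyp2r1, Cyp4f13 and Cyp19a1 fall outside that rule and were named after their values were seen. Alternatives were DESeq2 1.42.0, its size factors, library totals, other filters, a mouse block, fits of the compared groups only, a fold threshold and left-out libraries or mice. The code was tested on simulated data.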

Additional observations from a re-analysis of the deposited data

Results flagged for a closer look

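Over 100 groups of 4 libraries from the 25 named and tested members, 7 held a library apart from the other 3 by Dixon's test, and chance alone gives about 1 in 20. Mouse 4 of the N1-AcSpd α6+/CD34+ group accounted for 3 of them, with Aldh3a1 at 6.93 CPM (others 11.6 to 11.9), Aldh1l1 at 6.81 CPM (others 4.67 to 4.91) and Aldh4a1 at 6.87 CPM (others 5.46 to 5.64). Without that library the log2 fold changes kept their sign and call. The others were Aldh3a1 at 9.21 CPM in untreated α6+/CD34+ library 2 (others 8.53 to 8.62), Aldh1l1 at 1.79 CPM in N1-AcSpd α6+/CD34- library 3 (others 2.83 to 2.85), Cyp2b10 at 18.2 CPM in untreated α6+/CD34- library 4 (others 14.4 to 14.9) and Adh6b at 0 CPM in untreated α6+/CD34- library 1 (others 0.766 to 0.902). Without untreated α6+/CD34- library 4, the Cyp2b10 interaction was -0.75 on the log2 scale, a description only, since this interaction was known when the family was put forward.

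For 2 members the effect of N1-AcSpd had opposite signs in the 2 cell types in every mouse. The share of all genes with such signs was not computed, so this is given as a description. Cyp2b10 rose in α6+/CD34- cells and was lower in α6+/CD34+ cells, and its interaction of -0.66 did not pass in edgeR (adjusted p = 0.411). Cyp7b1 was lower with N1-AcSpd in α6+/CD34- cells and higher in α6+/CD34+ cells, with an interaction of 0.53 (SE 0.29, adjusted p = 1), which did not pass. In α6+/CD34+ cells of mouse 3 it was nearly level, at 9.92 CPM untreated and 9.94 CPM with N1-AcSpd.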

How the results depend on the processing

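Of 37 called values of named members, 252 of 259 values under other settings and 692 of 740 under left-out libraries or mice stayed called, the other 7 and 48 kept their direction without passing, and none changed sign. Outside these values, the Cyp39a1 call with N1-AcSpd and the Aldh3b3 call untreated were lost as given above. The counts of members called between the cell types stayed within 1.5 times of 24 and 26. With N1-AcSpd in α6+/CD34- cells the count was 0 instead of 1 when only the compared groups were fitted, 0 when an absolute log2 fold change over 0.5 was also required, and 0 to 1 over left-out libraries or mice. In α6+/CD34+ cells it was 2 with DESeq2 instead of 0. For the interaction it was 1 with DESeq2 instead of 0, and 0 to 1 over left-out libraries or mice. With mouse as a replicate block, 26 members were called untreated and 27 with N1-AcSpd. The block took no call away and changed no others than those given for Aldh2 and Cyp4f13. Over all genes the block raised the treatment calls from 117 to 349 and from 62 to 152. DESeq2 gave 558 and 431, fits of the compared groups only gave 0 and 3, and fits with no low-count filter gave 35 and 35. Scaling by library totals moved the median log2 fold change over all genes between the cell types to 0.14 untreated and 0.11 with N1-AcSpd. The split of higher to lower calls over all genes went from 3059 and 3064 to 4861 and 1762, and from 3147 and 3199 to 4792 and 1904. No called member changed direction under it. Counts per library limit what can be said of the 34 members not tested.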
